A study of Mus musculus with 9 samples.

Results

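The comparison described here sets mouse embryonic stem (ES) cells that had expressed a Sox17 transgene for 7 h against ES cells in which it was not induced. It uses 3 of the 9 RNA libraries of the series: the Sox17 line after 7 h of doxycycline (dox), the Sox17 line without dox, and R1, a wild-type ES line without dox. A gene was described as higher or lower at 7 h only where its level lay above both or below both uninduced libraries. Of 37975 gene rows, 37502 had a usable estimate in all 3 libraries, and 13305 of these reached at least 1 FPKM in 1 or more of them and were compared. FPKM is a count of sequenced fragments scaled by library size and by transcript length, so levels of different genes can be set side by side. By the call used below, 202 rows stood at least 1 log2 unit outside both uninduced libraries, 131 above and 71 below.

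The series followed mouse ES cells on their conversion by Sox17 into cells like XEN cells, the stem cells of the extraembryonic endoderm. The Sox17 line was profiled without dox, at 7, 21, 35 and 49 h and 6 days of dox, and as Sox17-XEN cells, which had 30 days with dox and then 30 days without it. R1 ES cells and IM8AR XEN cells, both wild type, were profiled beside them. With a single library in each group, spread between replicates is unknown, groups could not be tested against each other, and differences are given as measured.

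All 3 libraries compared here came from ES cells grown on mouse embryonic fibroblast feeders in serum with LIF, the cytokine that maintains mouse ES cells. The 7 h library received dox at 100 ng/ml, and both uninduced libraries received none. Both libraries of the Sox17 line carry the Sox17 overexpression genotype, and R1 does not. A line without the transgene treated with dox is not among the libraries, so effects of dox and of Sox17 cannot be told apart. The uninduced Sox17 line is labelled 0 h, so time in culture and induction cannot be told apart either. The labels do not say whether the line is 1 clone. RNA came from whole cultures, and in such bulk RNA fewer cells of a type and less RNA per cell cannot be told apart.

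Sox17 is an HMG-box transcription factor of the SoxF subgroup. In the blastocyst it marks the primitive endoderm, the layer that gives rise to parietal and visceral endoderm, and it binds DNA alone or beside Oct4, the product of Pou5f1. FGF4 made by epiblast cells acts through FGF receptors and ERK to favour primitive endoderm, while Nanog, Sox2 and Oct4 keep the epiblast and ES cell state.

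The ES cell label was checked first. Pou5f1 was at 1080 FPKM in R1, 723 in the uninduced Sox17 line and 698 at 7 h. Nanog was at 169, 169 and 99.7 FPKM in the same order. Gata6, Sox7 and Foxa2, which define primitive endoderm, were each under 1 FPKM in all 3 libraries. The 7 h library therefore had Pou5f1 and Nanog at levels of an ES culture. Of the primitive endoderm markers, Gata4 lay above both controls, and Dab2 and Pdgfra lay between them.

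Relative depth could be read only roughly from the steps between low values: 126% of R1 and 119% of the uninduced line for the 7 h library, from ratios shared by 8.80% and 9.25% of low values. The authors' lower confidence bound was 0 for 98.9% of the values at or above 1 FPKM in these libraries, and no called gene had an interval clear of both controls. The uninduced lines differed from each other as well. Among 11974 protein-coding rows, 3.63% were at least 1 log2 unit higher in the uninduced Sox17 line than in R1 and 1.09% were lower, and the differences had an SD of 0.488 log2 units over genes. Summed fibroblast feeder markers were at 1222 FPKM in R1, 3335 in the uninduced Sox17 line and 1408 at 7 h, with all 5 defining markers (Col1a1, Col1a2, Col3a1, Postn, Thy1) present in each.

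Differences are given on the log2(FPKM + 1) scale, which understates changes of genes at low levels. Before any minimum size, 20.5% of the 13305 rows lay above both uninduced libraries and 41.6% below both, and the other 5046 rows lay between them. The median difference was -0.11 from the uninduced Sox17 line and -0.03 from R1. Over rows of at least 5 FPKM in all 3 libraries the medians were -0.12 and -0.10, so the 7 h library sat slightly low for most genes. With these medians set to 0, 33.9% of rows lay above both and 26.6% below both. The split of rows on either side depends on the scaling, with 33.0% of outside rows above before the shift and 56.0% after it.

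A gene was called higher or lower where the 7 h level was at least 1 log2 unit (2-fold in FPKM + 1) from both controls. Over all rows, 0.985% were higher and 0.534% lower. Among protein-coding rows 75 were higher (0.626%) and 42 lower (0.351%). With the median set to 0, all 75 higher genes and 28 of the 42 lower genes kept their call. Both medians were negative, so this step raised every difference, and only lower calls could be lost. The share of coding calls that were higher went from 64.1% to 77.6%. Over all rows this share went from 64.9% to 74.3%. The edge of the call ran between Mycl1 at 1.01 and Dgkk at 0.99 above the nearer control, and between Egr1 at -1.01 and Eras at -0.98 below it. Of the higher coding genes, 23 were under 1 FPKM in both uninduced libraries, and 4 of the lower ones were under 1 FPKM at 7 h.

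**Figure D1:**
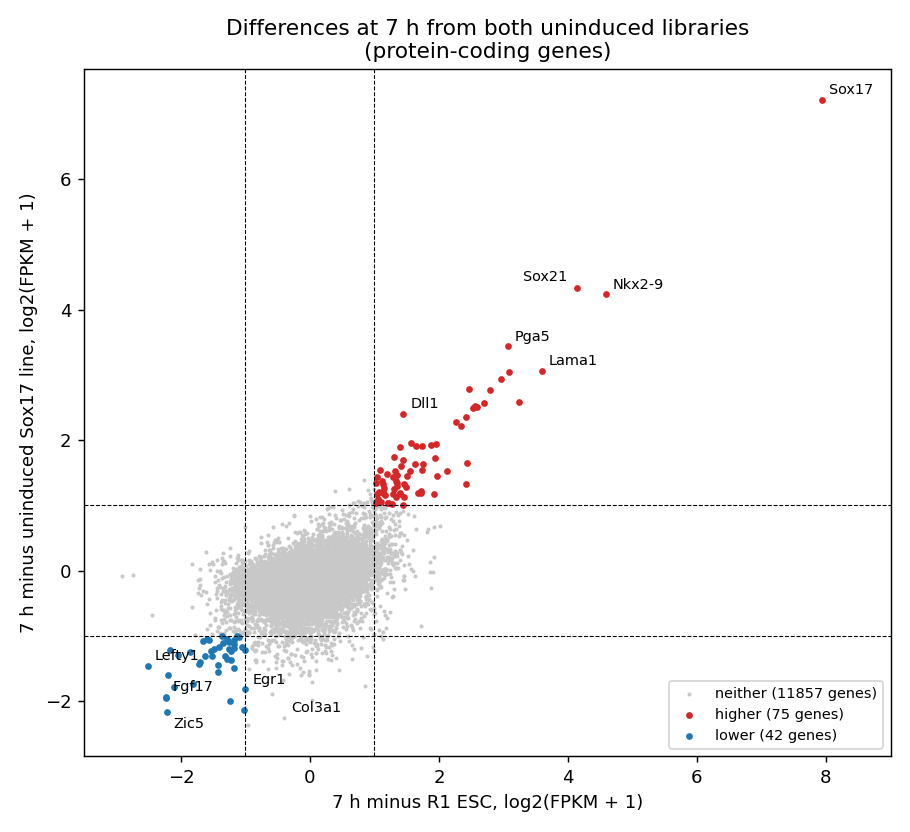
Each point is 1 protein-coding gene, with its 7 h difference from R1 on the x axis and from the uninduced Sox17 line on the y axis, both in log2(FPKM + 1). Dashed lines mark 1 log2 unit; the 75 red genes lie past it above both controls and the 42 blue genes below both, Sox17 lies at the far upper right, and Col3a1, a feeder gene, lies low on the y axis alone.

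Sox17 itself (chr1:4481009-4486494, build mm9) was at 0.163 FPKM in R1, 0.909 in the uninduced Sox17 line and 283 at 7 h. The 7 h level was 7.22 log2 units above the uninduced line and 7.93 above R1, larger than for any other protein-coding gene. Gene-level FPKM does not separate transgene from endogenous Sox17, so the value checks the induction and says nothing of the endogenous gene.

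The genes next to Sox17 in the order were a homeobox gene and a SoxB2 gene. Nkx2-9, which encodes a homeodomain factor of the ventral neural tube (chr12:57712376-57714271), was at 1.01 FPKM in R1, 1.56 in the uninduced line and 47.2 at 7 h. Sox21, a SoxB2 factor of neural progenitors (chr14:118632454-118660421), was at 0.431, 0.253 and 24.2 FPKM. The 2 controls were close to each other for both genes, and the differences were 4.24 and 4.58 for Nkx2-9 and 4.33 and 4.14 for Sox21, from the uninduced line and from R1. Sox21 shares its listed locus with another row, so its value is less certain.

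Lama1 encodes the laminin alpha1 chain of early embryonic basement membranes, and Pga5 encodes a pepsinogen, a secreted protease precursor. Lama1 (chr17:68046605-68171985) was at 2.40 FPKM in R1, 3.92 in the uninduced line and 40.1 at 7 h, 3.06 above the nearer control. Pga5 (chr19:10743447-10752561) was at 1.497, 0.923 and 19.9 FPKM, also 3.06 above the nearer control. Both genes had a few FPKM at most in the uninduced cultures.

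Within the SOX family, 11 of the 19 genes measured passed the 1 FPKM filter, and 4 were higher, beside 0.985% over all rows: Sox17, Sox21, Sox14 and Sox2ot. Sox17 is the induced gene and Sox21 a marker chosen with earlier results known, so nothing is read from the count. The median difference over the 11 was -0.39 from the uninduced line and 0.04 from R1. Sox14, like Sox21 a SoxB2 factor, was at 0.0651 FPKM in R1, 0.0112 in the uninduced line and 1.33 at 7 h. Sox2ot, a long noncoding RNA whose gene overlaps Sox2, was at 1.62, 0.526 and 12.6 FPKM. Sox2 itself was lower in level at 7 h, with 139 FPKM in R1, 131 in the uninduced line and 67.0 at 7 h. Its differences of -0.95 and -1.04 did not pass 1 log2 unit from both, so it was not called. Sox2 and Sox2ot share their listed locus (chr3:34003360-34581541), and the use of strand in counting is not stated, so reads of one may stand in the other.

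Transcription factors of other families were also among the higher genes. Prdm1, the zinc-finger repressor Blimp1, was at 3.69 FPKM in R1, 4.41 in the uninduced line and 17.001 at 7 h. Foxa1, a forkhead factor of endoderm, was at 0.167, 0.167 and 2.62 FPKM. Elf3, an epithelial ETS factor, was at 16.0, 16.5 and 42.2 FPKM. In each of the 3 genes the controls were close together and the 7 h library stood above them. Neurog3, the basic helix-loop-helix factor of endocrine progenitors, was at 0.644, 0.446 and 3.39 FPKM and shares its listed locus with another row. Cited4, a CBP/p300 coactivator, was at 0.711, 0.802 and 8.17 FPKM. Id4, an inhibitor of basic helix-loop-helix factors, was at 2.17, 1.30 and 5.68 FPKM. Id4 and Bmp6 were the higher genes of 15 compared in the BMP and Id list, beside 0.985% over all rows.

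The higher genes included some that encode secreted ligands or an inhibitor of one. Igf1, insulin-like growth factor 1, was at 0.335 FPKM in R1, 0.344 in the uninduced line and 8.20 at 7 h, 2.77 above the nearer control. Bmp6, a bone morphogenetic protein, was at 0.298, 0.372 and 6.80 FPKM, 2.51 above it. Both were under 1 FPKM in both uninduced libraries, and both share a listed locus with another row. Dll1, a ligand of Notch receptors, was at 4.51, 1.83 and 13.998 FPKM. Hhip, which binds Hedgehog ligands and restrains them, was at 0.347, 0.202 and 3.50 FPKM.

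Few other listed members of these pathways were called, beside 0.985% higher and 0.534% lower over all rows. In the IGF list Igf1 alone of 16 genes compared was higher, and Igf2 was at 10.9 FPKM in R1, 8.44 in the uninduced line and 7.69 at 7 h. In the Notch list Dll1 alone of 13 was higher, with Notch1 at 3.17, 7.85 and 8.95 FPKM. In the Hedgehog and ventral neural list of 12, Hhip and Nkx2-9 were higher. Nkx2-9 is a marker chosen with earlier results known, so nothing is read from this count. The Hedgehog target Gli1 was at 27.2, 22.0 and 25.1 FPKM and the receptor Ptch1 at 34.8, 45.5 and 49.4 FPKM, neither past the call.

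Among matrix and chromatin genes, Col9a1 and Phf19 stood out in level. Col9a1, a chain of the cartilage collagen IX, was at 0.0317 FPKM in R1, 0.0554 in the uninduced line and 7.05 at 7 h. Col9a2 and Col9a3, which encode its partner chains, were at 7.43, 5.26 and 3.53 FPKM and at 1.998, 1.18 and 1.95 FPKM, neither of them called. Phf19, a Polycomb-like subunit of PRC2, was at 5.93, 6.13 and 39.8 FPKM, 2.52 above the nearer control. Phf19 was the single called gene of 20 in the DNA methylation and Polycomb list, beside 0.985% higher over all rows. Its row shares a listed locus with another gene.

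The rest of the 20 rows furthest above both controls were of mixed kinds. Cyp4f14, a fatty acid and eicosanoid hydroxylase, was at 0.0162 FPKM in R1, 0.0559 in the uninduced line and 7.67 at 7 h. Mobp, a myelin protein gene, was at 4.06, 3.07 and 26.9 FPKM, and Pgam2, muscle phosphoglycerate mutase, at 2.28, 2.36 and 17.8 FPKM. Mid2, a TRIM-family ubiquitin ligase, was at 0.272, 1.01 and 10.999 FPKM. Fam167a, Zcchc18, Cd247 (the T-cell receptor zeta chain) and Ly6g6f were also among the 20, with nearer differences between 1.87 and 2.57. The 7 h value of each row lies outside its controls because the call requires it. None of them had a confidence interval clear of both controls.

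**Figure D2:**
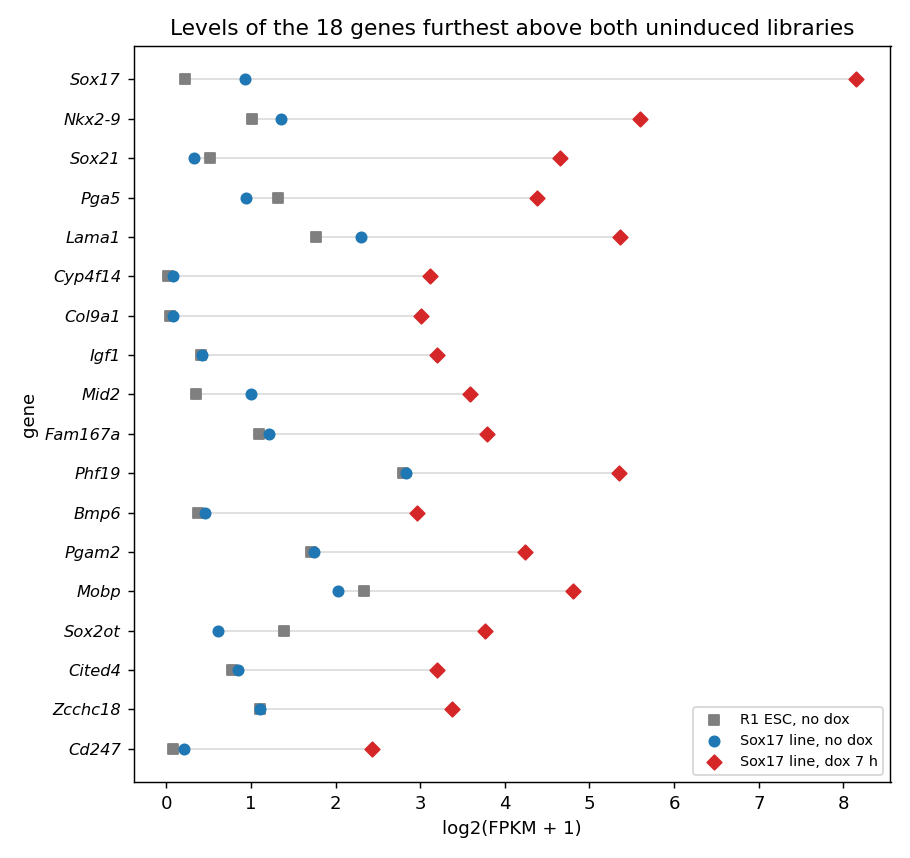
Each line is 1 of the 18 rows furthest above both uninduced libraries, ordered by the difference from the nearer control, with the level on the x axis in log2(FPKM + 1); grey squares are R1, blue circles the uninduced Sox17 line and red diamonds 7 h of dox. The controls lie close together for most rows, and Sox17 at 283 FPKM has the highest level at 7 h.

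SOX factors bind a short core, and the windows upstream of these genes were searched for it, because several of them appear together at 7 h. The letters searched were ACAATG and ACAAAG on both strands, in the 250 bases before each gene's start in the RefSeq promoter table (GRCm38.p6, another build than the mm9 of the expression table). Of the 20 rows furthest above both controls, 14 were matched by symbol. ACAATG was in 0 of the 14 windows and ACAAAG in 3 (21.4%), those of Igf1, Ly6g6f and Mobp. ACAAAG was in 3 of 10 matched windows (30%) of the 20 rows furthest below both controls and in 14.6% of the coding genes compared, so the 3 windows are shown as examples and not as a feature of the higher genes. They are shown with a copy of the core, or of its reverse complement CTTTGT, in capitals.
Igf1, chr10:87860965-87861030, plus strand: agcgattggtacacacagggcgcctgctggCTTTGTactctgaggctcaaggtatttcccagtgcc
Ly6g6f, chr17:35085716-35085781, minus strand: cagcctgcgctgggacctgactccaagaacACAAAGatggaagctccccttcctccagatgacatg
Mobp, chr9:120149580-120149645, plus strand: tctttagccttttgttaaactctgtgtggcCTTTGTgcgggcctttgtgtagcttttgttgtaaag
The capitals begin 116 bases before the start of Igf1, 156 before that of Ly6g6f and 132 before that of Mobp, whose window holds further copies. The copy that begins 120 bases before the start of Mobp also lies in the stretch shown, in lower case.

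The shares were set beside those of other windows of the same length. Either core was in 15 of 49 matched windows of higher coding genes (30.6%) and in 7 of 29 of lower ones (24.1%). It was in 20.4% of the 8606 matched coding genes compared and in 28.2% of all 27025 genes of the table. The joined SOX and OCT letters TTGTATGC and TTGTNATGC, searched on both strands, were in 0 windows of the higher or lower genes, against 0.198% and 0.360% of the coding genes compared and 0.392% and 0.766% of the whole table. Nothing is read from the 0, since letters this rare were in few windows of any set. A match is a run of letters and not a measured binding site, and a window without one says only that these letters are absent from it.

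Genes of the endoderm lists were mostly at or near their uninduced levels at 7 h. Of 14 primitive endoderm regulators, 8 passed the 1 FPKM filter and 1 was higher, Lrp2 (megalin, the endocytic receptor), with 2.23 FPKM in R1, 3.51 in the uninduced line and 9.33 at 7 h. Gata4, the GATA factor of primitive endoderm, was at 0.655, 0.824 and 1.96 FPKM, 0.70 and 0.84 above its controls and not called. Dab2, an endocytic adaptor of endoderm, lay between the controls at 3.20, 8.52 and 3.78 FPKM. The median difference of the 8 was -0.14 from the uninduced line and 0.42 from R1, beside -0.11 and -0.03 over all rows. Lrp2 was also the 1 called gene of 8 in the visceral endoderm list, and Foxa1 of 5 in the definitive endoderm list. None of 13 parietal endoderm genes was called. These counts stand beside 0.985% higher and 0.534% lower over all rows.

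In the basement membrane list Lama1 was the only called gene of 21 compared, beside 0.985% higher over all rows. Lamb1 and Lamc1, the chains that pair with laminin alpha1, were both above their controls by less than the call. Lamb1 was at 32.7 FPKM in R1, 58.1 in the uninduced line and 61.7 at 7 h. Lamc1, chosen after its values were seen, was at 33.9, 54.0 and 65.5 FPKM. For both, the spread between the uninduced lines was larger than the step from the nearer one to 7 h.

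Of 14 genes compared that SoxF factors are known to act on in endothelium, none was called. Over all rows, 0.985% were higher and 0.534% lower. The receptor gene Kdr came nearest, with 0.144 FPKM in R1, 0.276 in the uninduced line and 1.51 at 7 h. It was 0.98 above the uninduced line and 1.14 above R1, and with the median set to 0 it passed the call, the 1 gene of the list to do so.

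The lower genes were led by epiblast transcription factors and FGF ligands. Zic5, a zinc-finger factor of epiblast and neural plate, was at 10.2 FPKM in R1, 9.80 in the uninduced line and 1.40 at 7 h. Its neighbour Zic2 was at 10.7, 8.55 and 1.48 FPKM, and Foxd3, a forkhead factor of epiblast and neural crest, at 10.3, 7.99 and 1.61 FPKM. The 3 genes were 1.78 to 2.17 log2 units below the nearer control. They and Fgf5 were the 4 lower genes of 15 in the primed epiblast list, of which 12 lay below both controls and 0 were higher, beside the same 0.534% lower and 41.6% below both over all rows. The median of this list was -0.77 from the uninduced line and -0.67 from R1. Otx2, a homeobox factor, was at 24.7, 25.8 and 22.3 FPKM, close to its controls.

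Of the FGF ligand genes compared, Fgf17, Fgf15, Fgf5 and Fgf4 were lower and Fgf8 and Fgf10 were not called. Fgf17 was at 15.7 FPKM in R1, 12.6 in the uninduced line and 2.55 at 7 h. Fgf15 was at 17.4, 13.9 and 4.97 FPKM, and Fgf5, the ligand of primed epiblast, at 4.61, 5.12 and 1.09 FPKM. All 3 stood more than 1 log2 unit below both controls, Fgf17 by 1.93 or more. Fgf4, the ES cell ligand that acts on primitive endoderm precursors, was at 39.9, 33.6 and 14.4 FPKM, 1.17 and 1.41 lower. Fgf8 was at 7.81, 4.56 and 4.21 FPKM, close to the uninduced line, and Fgf10 at 0.560, 1.86 and 1.46 FPKM, between the controls. The receptors Fgfr1, at 36.7, 44.1 and 28.6 FPKM, and Fgfr2, at 8.31, 10.7 and 14.1 FPKM, were not called.

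With Egr1, Fos and Myc, which encode transcription factors induced by ERK signalling, 7 of 21 genes in the FGF and ERK list were lower and 0 higher, and 14 lay below both controls, beside 0.534% lower and 41.6% below both over all rows. The list's median was -0.49 from the uninduced line and -0.31 from R1. Egr1 was at 19.7 FPKM in R1, 35.3 in the uninduced line and 9.28 at 7 h. Fos was at 3.16, 3.52 and 1.01 FPKM, and Myc at 32.1, 29.5 and 13.6 FPKM. With the median set to 0 these 3 lost their call and the 4 ligands kept it. The ERK feedback and output genes Spry4, Dusp6, Etv4 and Etv5 were not called. Spry4 was at 9.78, 15.3 and 24.4 FPKM, above both controls, and Dusp6 at 19.1, 23.2 and 21.4 FPKM, between them.

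Immediate early genes are those that serum and growth factors induce quickly, and that list shares Fos, Egr1 and Ier3 with the FGF and ERK list. Of 16 compared, 15 lay below both controls, beside 41.6% over all rows. By the call 3 were lower (Fos, Egr1 and Klf2), beside 0.534% over all rows, and 0 were higher. Their median difference was -0.75 from the uninduced line and -0.82 from R1. With the median set to 0, 15 still lay below both and 0 were called. Junb, an AP-1 subunit, was at 19.96 FPKM in R1, 25.6 in the uninduced line and 11.005 at 7 h, and Ier2 at 64.0, 54.8 and 32.4 FPKM. The part of this list's lower levels in those of Egr1, Fos and Myc was not tested.

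The core pluripotency factors Pou5f1, Nanog and Sox2 were not called. Of 30 pluripotency genes, 4 were lower, 0 were higher and 18 lay below both controls, beside 0.534% lower and 41.6% below both over all rows. The lower genes were the transcription factor gene Klf2 and the secreted factor genes Fgf4, Lefty1 and Lefty2, while Gdf3, another secreted factor of the list, was at 28.4 FPKM in R1, 19.03 in the uninduced line and 19.2 at 7 h. The list's median was -0.37 from the uninduced line and -0.50 from R1. Klf4, a Kruppel-like factor, was at 28.0 FPKM in R1, 41.6 in the uninduced line and 23.6 at 7 h, not called. Klf2, of the same family, was at 56.6, 39.4 and 18.4 FPKM and lost its call with the median set to 0. Nanog, given above, was 0.76 below the uninduced line and 0.75 below R1, and Pou5f1 was 0.05 and 0.63 below them. Esrrb, another member, had no usable estimate in all 3 libraries.

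Lefty1 and Lefty2 encode secreted inhibitors of Nodal signalling and are themselves Nodal targets. They were the called genes of 18 in the Nodal and TGF-beta list, both lower, beside 0.534% lower over all rows. Of the 18, 9 lay below both controls, beside 41.6% over all rows. Lefty1 was at 209 FPKM in R1, 99.9 in the uninduced line and 35.7 at 7 h. Lefty2 was at 61.3, 60.8 and 24.0 FPKM. Nodal was at 36.8, 24.9 and 13.2 FPKM, 0.87 below the nearer control and not called. The 2 Lefty genes lie 35.9 kb apart.

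Several kinase genes were among the lower genes. Pim2, a serine/threonine kinase gene, was at 80.3 FPKM in R1, 47.2 in the uninduced line and 18.7 at 7 h. Pim1 and Pim3, of the same family and targets of STAT3, were at 61.4, 41.8 and 19.6 FPKM and at 61.3, 51.5 and 23.3 FPKM. Pim1 and Pim3 were the lower genes of 14 in the LIF and STAT3 list, beside 0.534% lower over all rows. Both lost the call with the median set to 0, and Pim2 is not in that list. Of the 14, 9 lay below both controls, beside 41.6% over all rows. The list's median was -0.62 from the uninduced line and -0.16 from R1. The receptor genes Lifr, at 3.36, 5.89 and 6.95 FPKM, and Il6st, at 8.95, 20.5 and 16.2 FPKM, were not lower. Sgk1, a kinase induced by serum and glucocorticoid, was at 181, 118 and 38.4 FPKM.

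Other lower genes included regulators of imprinting and growth. Zfp57, a KRAB zinc-finger protein that maintains imprints, was at 168 FPKM in R1, 136 in the uninduced line and 50.0 at 7 h. H19, an imprinted noncoding RNA, was at 76.3, 50.6 and 16.5 FPKM and shares its locus with another row. Mycn was at 107, 91.1 and 36.4 FPKM. In all 3 the R1 library was the highest and the 7 h library the lowest. Car4, a carbonic anhydrase gene, was at 15.7, 14.8 and 3.76 FPKM, and Pdgfc, a platelet-derived growth factor gene, at 10.5, 10.7 and 3.27 FPKM.

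**Figure D3:**
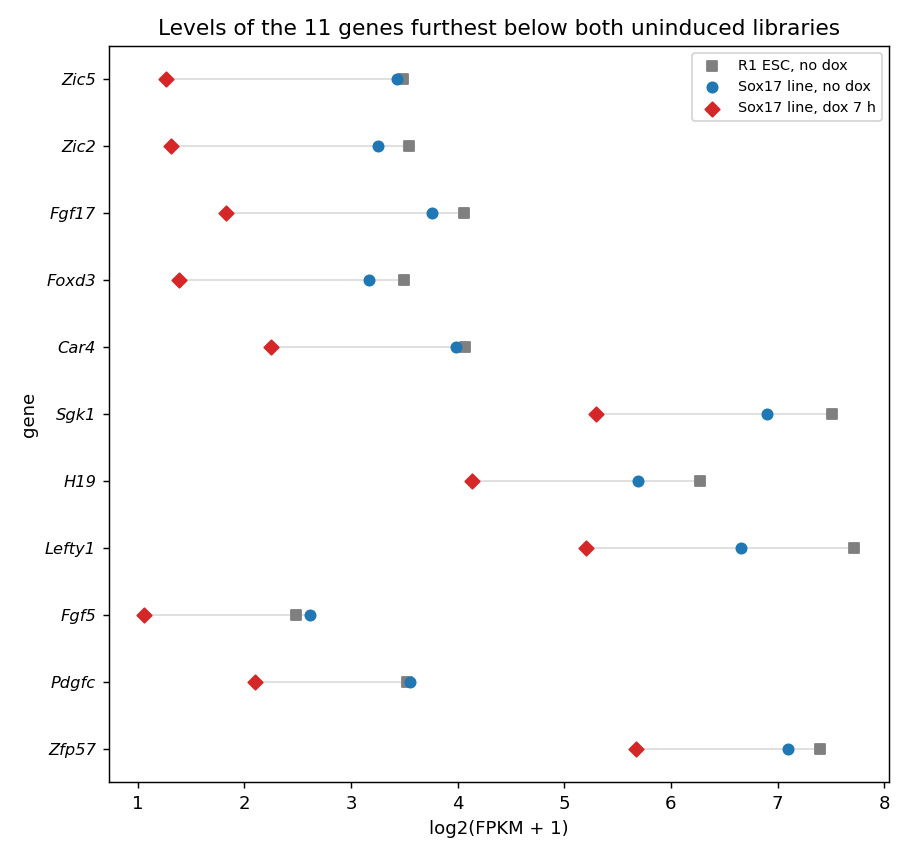
Each line is 1 of the 11 rows furthest below both uninduced libraries, ordered by the difference from the nearer control, with the level on the x axis in log2(FPKM + 1); symbols are as in the plot of higher rows. The 7 h diamond is the lowest symbol in every line, and Lefty1 has the widest gap between R1 and 7 h, at 2.51 log2 units.

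Feeder markers and mitochondrial transcripts differed mainly between the uninduced libraries. Of 24 fibroblast feeder genes, 1 was lower than both (Aspn) and 0 were higher, beside 0.534% lower and 0.985% higher over all rows. Their median difference was -1.19 from the uninduced line and 0.05 from R1. Col3a1, a fibrillar collagen gene, was at 36.6 FPKM in R1, 134 in the uninduced line and 27.3 at 7 h. Aspn was at 2.36, 6.27 and 0.648 FPKM and lost its call with the median set to 0. Mgp, a matrix protein gene that fibroblasts can express, was lower at 86.4, 56.5 and 23.2 FPKM, in an order over the controls that differs from that of the feeder list. The 14 mitochondrially encoded genes compared all lay between the controls, with sums of 11399 FPKM in R1, 30076 in the uninduced line and 21325 at 7 h.

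Lists on growth and stress had no called gene, beside 0.985% higher and 0.534% lower over all rows. The lists were proliferation (23 compared), housekeeping (15), p53 targets (15), the integrated stress response (18), ER folding (16) and the Wnt pathway (19). Of the p53 targets 12 lay below both controls, of the Wnt genes 12 and of the housekeeping genes 8, beside 41.6% over all rows. Cdkn1a, a p53 target that restrains the cell cycle, was at 60.1 FPKM in R1, 74.7 in the uninduced line and 39.0 at 7 h. Mki67, a proliferation marker, was at 13.4, 25.9 and 29.6 FPKM, near the uninduced Sox17 line.

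**Figure D4:**
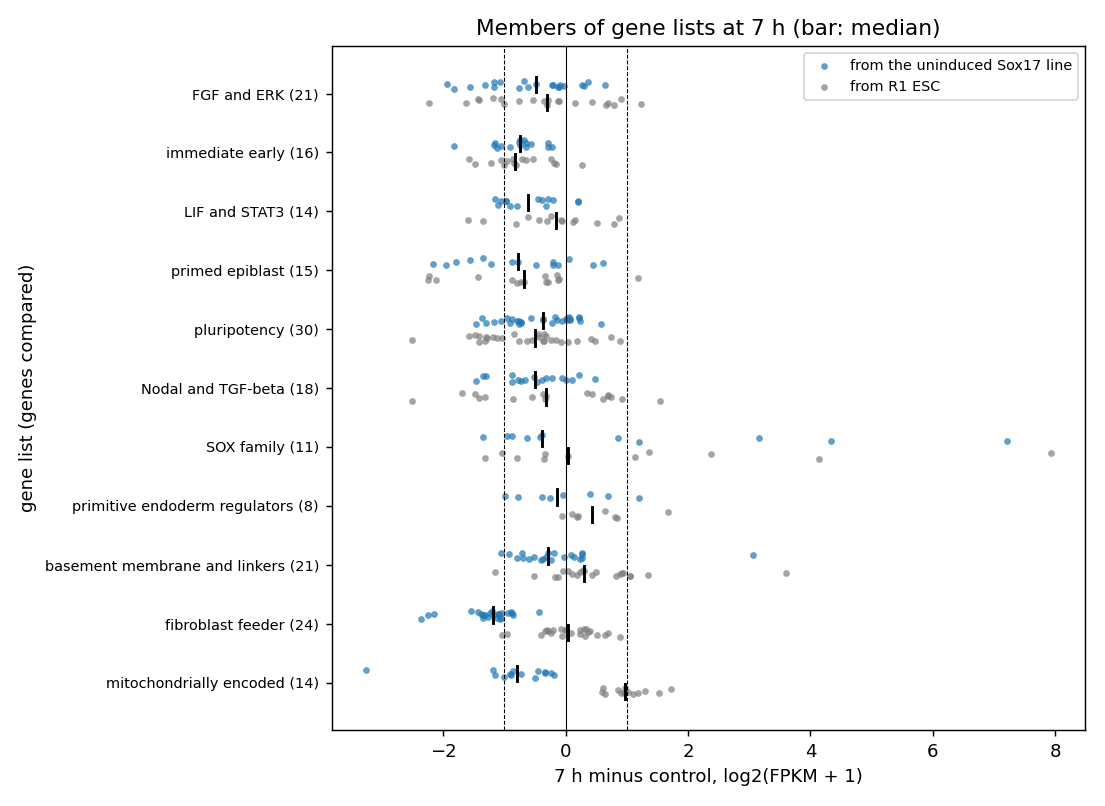
Each point is 1 gene of a list, with its 7 h difference from the uninduced Sox17 line (blue) or from R1 (grey) on the x axis in log2(FPKM + 1), black bars for the medians and dashed lines at 1 log2 unit; the number compared is beside each name. Feeder genes lie left of 0 in blue and around 0 in grey, mitochondrial genes lie on opposite sides of 0 in the 2 colours, and the immediate early genes lie left of 0 in both apart from 1 grey point.

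The later libraries share these controls, so their values are set side by side with no test. Of the 20 rows furthest above both controls at 7 h, 13 had their highest level of the dox course at 21 h, 3 at 7 h, 1 at 35 h and 3 at day 6. At 21 h 15 of the 20 were above their 7 h level. Sox17 was at 281 FPKM at 21 h, 191 at 35 h, 151 at 49 h and 71.1 at day 6. Nkx2-9 was at 62.4, 18.1, 12.3 and 0.511 FPKM at the same times, and Col9a1 at 34.9, 9.91, 3.79 and 0.0767 FPKM. Both had passed their highest level by 35 h and were low again at day 6.

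Few of the 20 stayed high to the end of the series. At day 6, 4 of the 20 were above their 7 h level, and in wild-type XEN cells 2 were. Lama1 reached 1169 FPKM and Pga5 153 FPKM at day 6. Pga5 was at 211 FPKM in Sox17-XEN and 192 FPKM in wild-type XEN cells, where Lama1 had no usable estimate. Phf19 was at 64.1 FPKM at 21 h and 0.470 at day 6. Dll1 and Neurog3 were lower at 21 h than at 7 h, with 5.68 and 0.887 FPKM.

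The 20 rows furthest below both controls were split at 21 h, 10 below and 10 above their 7 h level. Fgf17 and Fgf15 went on to 0.923 and 2.30 FPKM at 21 h. Lefty1 and Lefty2 were at 130 and 70.4 FPKM at 21 h, far above their 7 h levels of 35.7 and 24.0. At day 6, 17 of the 20 lay below both uninduced libraries, and H19, also among the 20, had no usable estimate. In wild-type XEN cells 18 of the 20 lay below both. Car4 was an exception, at 652 FPKM at day 6.

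**Figure D5:**
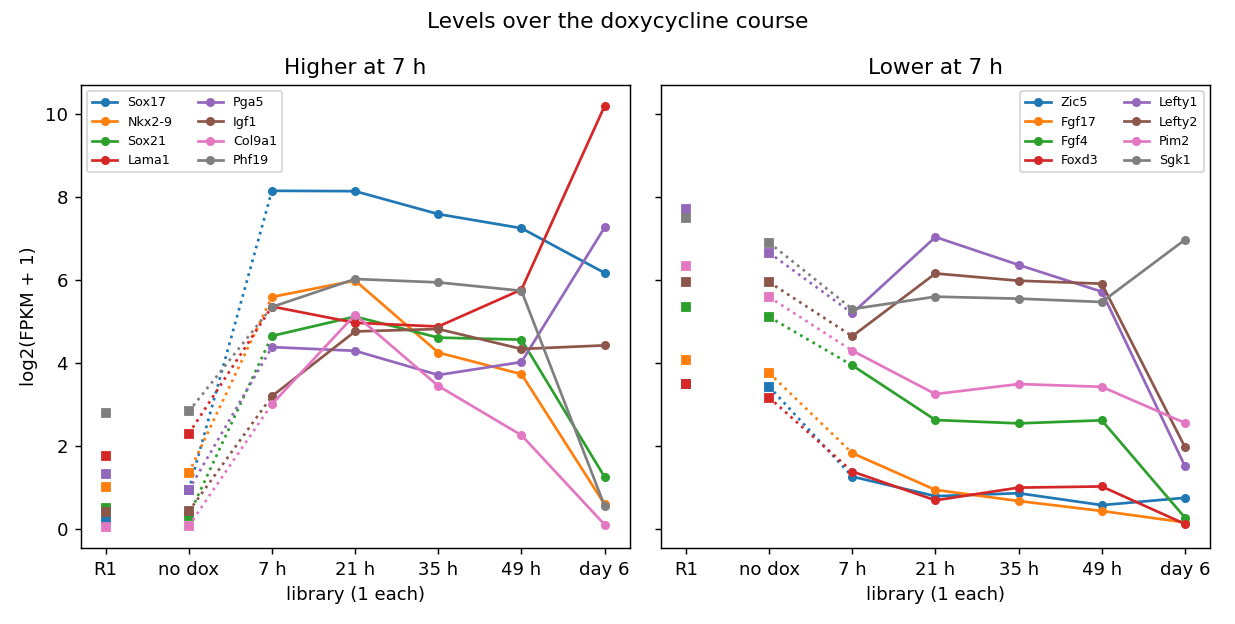
Levels of 8 genes higher at 7 h (left) and 8 lower at 7 h (right) in log2(FPKM + 1), in the uninduced libraries (squares) and over the dox course (circles joined by lines); libraries are evenly spaced, not to the scale of time, and each point is 1 library. On the left Nkx2-9 and Col9a1 are highest at 21 h while Lama1 and Pga5 are highest at day 6; on the right the Lefty genes are higher again at 21 h and the FGF genes are not.

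Several called genes lie beside each other in the genome. The lower genes Zic5 and Zic2 on chromosome 14 are 9.7 kb apart, Fgf4 and Fgf15 on chromosome 7 are 29.3 kb apart, and H2-M5 and Zfp57 on chromosome 17 are 11.6 kb apart. Among the higher genes, Ly6g6e, Ly6g6d and Ly6g6f lie within 1.7 kb of one another on chromosome 17. Ly6g6e was at 8.89 FPKM in R1, 7.92 in the uninduced line and 23.2 at 7 h, and Ly6g6d, listed at the same locus, at 1.59, 0.914 and 5.40 FPKM. Reads of overlapping genes in such clusters may be shared between rows.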

How the data were processed

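Per the labels, the 3 libraries were TruSeq RNA libraries of Trizol-extracted total RNA. Cufflinks 2.1.2, Cuffdiff, TopHat2 2.0.11 and the build mm9 appear in the submitters' processing notes. The authors deposited FPKM values per gene with confidence bounds and a status. Read counts were not analysed here, so absolute depth is not given and intervals from counts could not be computed. Values with a status other than OK were treated as missing, which left out 473 of 37975 rows. From the deposited FPKM, log2(FPKM + 1) was computed with a pseudocount of 1, for rows that reached 1 FPKM in any of the 3 libraries. With 1 library per group there is no significance test. The code that makes the calls was tested on simulated data with known differences. That check bears on the code and says nothing of false calls in these libraries. Gene types came from GENCODE M21 by identifier (32917 rows matched), and promoter windows from RefSeq GRCm38.p6 by symbol. Python 3.11.15, numpy 2.4.6 and pandas 2.3.3 were used.

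Genes named in the text were the 5 induction markers, the 20 rows furthest above and the 20 furthest below both controls with at least 2 FPKM (in the 7 h library for higher, in both controls for lower), leaving out predicted genes and small RNAs, and from each of 35 lists every called member and up to 4 others in list order. Further genes called higher or lower, Lamc1, Gata6, Sox7, Foxa2, Col9a2, Col9a3 and the ERK feedback genes were named after their values were seen. Some genes that the rule names are not reported here. The genes and lists were chosen with earlier results of these data known. Of compared rows 43.0% share a listed locus with another row, including 27 of the 75 higher and 9 of the 42 lower coding genes.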

Additional observations from a re-analysis of the deposited data

How the results depend on the processing

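No paired analysis was possible because every group has 1 library and the labels give no shared replicate numbers. Counts are given as higher and lower rows (131 and 71 as reported), then list members (15 and 16). A minimum difference of 2 log2 units gave 56 and 17 rows, with 9 and 1 list members. A minimum of 1.5-fold gave 293 and 308, with 45 lower list members. A pseudocount of 0.1 FPKM gave 210 and 159, and 5 FPKM gave 62 and 28, with 9 and 5 list members. A maximum of at least 5 FPKM left 87 higher rows. Against the uninduced Sox17 line alone 279 rows and 58 list members were lower. Against R1 alone there were 443 and 507 rows, with 37 and 41 list members. Against the mean of both, 190 rows and 28 list members were lower. Protein-coding rows alone gave 75 and 42. Without rows sharing a locus there were 67 and 36, with 8 higher list members. With the median set to 0, 9 list members were lower. With coding rows alone as well, an alternative added after seeing the data, 28 rows and 9 list members were lower. Intervals clear of both controls gave 0 in every count.

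Rows above and below both (2727 and 5532) became 6401 and 8696 with no filter, 4515 and 3544 with the median set to 0, 4094 and 3224 with that and coding rows alone, and 1518 and 3237 without shared loci; 1679 rows of at least 5 FPKM lay above both. Between the uninduced libraries (530 higher and 274 lower in the Sox17 line) the counts became 1064 and 488 with a pseudocount of 0.1 FPKM and 264 and 152 without shared loci. The cause of these moves was not tested beyond the fewer rows each filter leaves. Of 240 values of the 40 named rows under alternatives, 0 changed sign. The choice of rows at least 1 log2 unit outside both controls fixed this in advance, so nothing is read from it. All 40 stayed past 1 log2 unit with the median set to 0, a step that only the lower rows among them could fail. With a pseudocount of 5 FPKM, 31 stayed past it.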

Other observations

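The genes below were chosen after their values were seen, and no list stands behind them. Ina, the neuronal intermediate filament alpha-internexin, was at 19.3 FPKM in R1, 22.4 in the uninduced line and 56.0 at 7 h. Grin1, an NMDA receptor subunit, was at 1.74, 1.09 and 7.14 FPKM, and Arc, an activity-regulated neuronal gene, at 3.53, 5.50 and 13.9 FPKM. All 3 were higher by the call. Ina and Grin1 share their listed loci with other rows. The neuroectoderm list had 0 higher genes and 2 lower ones (Zic2 and Zic5) of 9 compared, beside 0.985% and 0.534% over all rows. Ina was back at 16.1 FPKM at 21 h, below both uninduced libraries.

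Glce, the heparan sulfate epimerase, was higher. It was at 5.18 FPKM in R1, 7.88 in the uninduced line and 23.3 at 7 h, and Hs3st3b1, a heparan sulfate sulfotransferase that was also higher, at 0.678, 0.937 and 3.22 FPKM. Interferon-inducible genes were called in both directions. Parp14 was higher, at 0.676, 0.828 and 4.67 FPKM. Isg15 and Irgm1 were lower. Isg15 was at 2.31, 2.34 and 0.424 FPKM and Irgm1 at 8.73, 8.36 and 3.08 FPKM.

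Of the called rows that are not protein-coding, 56 were higher and 29 lower. Small RNA rows, 180 of which were compared, gave 33 of the higher and 21 of the lower ones, beside 0.985% and 0.534% over all rows. These calls are part of the 131 higher and 71 lower rows reported. Small RNA rows also differed widely between the uninduced libraries alone. With the extremes at each end left out, the uninduced Sox17 line minus R1 ran from -6.33 to 4.35 log2 units for them. Over all rows it ran from -0.93 to 1.14, so nothing is read from the small RNA counts. Across all rows, 41 higher ones were listed at 0 in both uninduced libraries and 14 lower ones were listed at 0 at 7 h, with 0 protein-coding rows among either.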
